A study of Arabidopsis thaliana with 9 samples.

Results

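Endoplasmic reticulum chaperones are proteins that bind newly made polypeptides in the endoplasmic reticulum and help them fold. The 10 genes described here were chosen by locus code for what they encode, with earlier results of these data known, out of 32833 genes in the count table. They are the HSP70 genes BIP1 (AT5G28540), BIP2 (AT5G42020) and BIP3 (AT1G09080), the J-protein genes ERDJ3A (AT3G08970), ERDJ3B (AT3G62600) and ERDJ2A (AT1G79940), the HSP90 gene SHD (AT4G24190), and the lectin chaperone genes CNX1 (AT5G61790), CRT1 (AT1G56340) and CRT3 (AT1G08450).

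The study sequenced RNA of Arabidopsis thaliana sperm cells and vegetative nuclei sorted from growing pollen tubes, in 3 groups of 3 libraries. All pollen came from 1 marker line, which the labels call WT, carrying MGH3p::MGH3-GFP, a sperm histone fusion under its own promoter, and ACT11p::H2B-mRFP, a histone fusion under the ACT11 promoter. Semi in vivo sperm came from tubes that grew for 2 h in Col-0 pistils, emasculated 16 h earlier, and for 4 h out of the cut pistils on liquid medium. In vitro sperm and in vitro vegetative nuclei came from tubes that grew for 6 h on medium and met no pistil. Plants were raised for 8 weeks in 8-h days and moved to 16-h days to flower. The labels do not say whether libraries of a group came from separate plants or assays, so p-values measure the spread between these libraries only, which may be technical. A vegetative nucleus library holds RNA of a nucleus and a sperm library that of a whole cell, so the cell type and the compartment cannot be told apart.

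BiP proteins are ATP-driven HSP70 chaperones, and J proteins deliver clients to them and stimulate their ATPase. SHD, the HSP90 of the compartment, acts on selected clients. Calnexin and calreticulins hold glycoproteins by their trimmed sugars until they are folded. In Arabidopsis pollen, ERDJ3A is also known as TMS1 and is needed for tube growth at high temperature, ERDJ2A is a Sec63-type partner of the protein import channel needed for pollen germination, and SHD is needed for tube elongation.

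Total counts were 24005795, 41118337 and 32872736 in semi in vivo sperm libraries 1 to 3, 14470065, 40525238 and 36692917 in in vitro sperm, and 13768069, 35157304 and 27331280 in vegetative nuclei. The 8 sperm marker genes together had 24277 to 26981 CPM (counts scaled to the library total) in semi in vivo sperm, 18174 to 21440 in in vitro sperm and 129 to 363 in vegetative nuclei. Conversely, 9 vegetative cell marker genes had 43.1 to 84.0 CPM in semi in vivo sperm, 57.8 to 84.5 in in vitro sperm and 27328 to 42176 in vegetative nuclei. The markers used for sorting were on the same sides, which is no independent check because the fractions were sorted on them. Reads of the MGH3-GFP fusion may be counted with HTR10. HTR10 (MGH3) had 857 to 1006 CPM in semi in vivo sperm, 1177 to 1540 in in vitro sperm and 7.61 to 21.4 in vegetative nuclei, and ACT11 had 19.8 to 52.2, 33.0 to 47.9 and 734 to 1291 CPM in the same order. In vitro sperm library 2 stood apart from the other sperm libraries, with 14203 genes at 1 CPM or more against 7462 to 9867, and with 19.7 CPM over 12 pistil marker genes against 0.0913 to 6.08 CPM. Among nuclei, library 2 had 10086 genes at 1 CPM or more and 6.31 CPM of pistil markers, and libraries 1 and 3 had 6299 and 8405 such genes and 0.145 and 0.0366 CPM. The 4 photosynthetic tissue markers summed to at most 1.42 CPM in any library.

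ERDJ3A gave nearly all the sperm counts of these chaperone genes. Its levels in semi in vivo and in vitro sperm were close to each other, and it was the 1 of 7 members tested that passed between in vitro sperm and vegetative nuclei, being higher in sperm, where 44.9% of all genes tested passed. BIP1 had the opposite pattern, with 7.50 CPM or more in every nucleus library and at most 1.09 CPM in any sperm library. However, BIP1 missed the threshold. Of all genes tested, 21.0% had in vitro sperm below nuclei with no overlap, in CPM scaled as for the fit described below. None of the 6 members tested between semi in vivo and in vitro sperm passed the threshold, which 0.630% of all genes did, and SHD, whose protein is known for its part in tube growth, had 17 counts in semi in vivo sperm, 16 of them in library 1, and none elsewhere. The plot of levels by library shows all 10 genes.

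**Figure D1:**
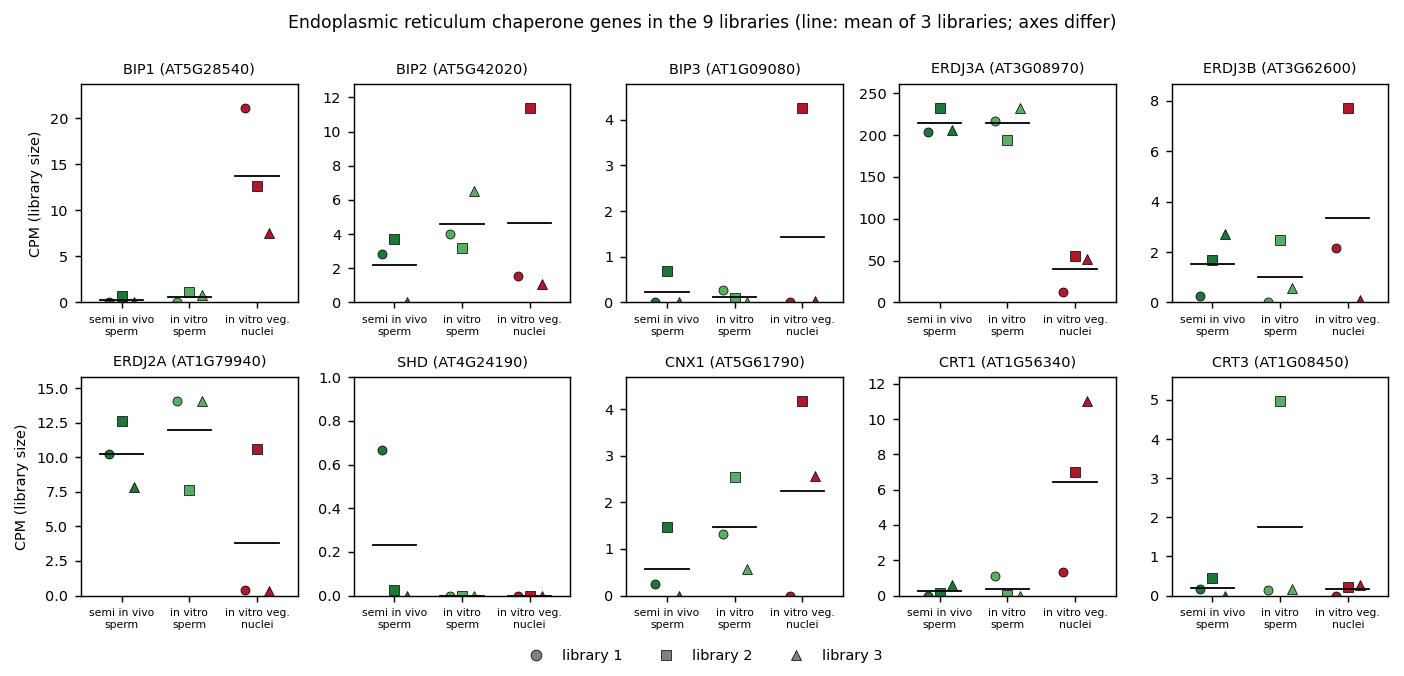
CPM (vertical axis, linear, scaled per gene) of each of the 10 chaperone genes in the 9 libraries, with semi in vivo sperm, in vitro sperm and in vitro vegetative nuclei on the horizontal axis; symbols mark the library number and lines the mean of 3 libraries. ERDJ3A lies at 194 to 233 CPM in all 6 sperm libraries and at 12.2 to 55.1 CPM in nuclei, BIP1 lies higher in every nucleus library than in any sperm library, and nucleus library 2 is the highest library for BIP2, BIP3, ERDJ3B and CNX1.

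ERDJ3A had 4903, 9576 and 6759 counts in semi in vivo sperm, 3129, 7877 and 8541 counts in in vitro sperm, and 168, 1938 and 1419 counts in vegetative nuclei. As levels these were 204, 233 and 206 CPM in semi in vivo sperm, 216, 194 and 233 CPM in in vitro sperm, and 12.2, 55.1 and 51.9 CPM in nuclei. The ranges of both sperm groups overlapped, and each sperm library lay above each nucleus library. Between in vitro sperm and nuclei, the groups did not overlap for 65.6% of all genes tested, with sperm higher for 44.6% of them all. These shares were taken on CPM scaled as for the fit described below, not on CPM over library totals. That scaling raises in vitro sperm relative to nuclei. The means were 214 ± 16.2 CPM in semi in vivo sperm, 214 ± 19.3 CPM in in vitro sperm and 39.7 ± 23.9 CPM in nuclei (SD, n = 3 each). By its mean level ERDJ3A lay above 98.2% of the genes with counts in semi in vivo sperm, 98.5% in in vitro sperm and 88.9% in nuclei.

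Between in vitro sperm and vegetative nuclei, 7 of the 10 members had enough counts to be tested, and BIP3, SHD and CRT3 did not. ERDJ3A was higher in sperm by a log2 fold change of 3.46 ± 0.63 (SE), or 11.0-fold, with an adjusted p of 0.00624 in edgeR's quasi-likelihood test with Benjamini-Hochberg adjustment over 14061 genes. Of all genes tested, 44.9% passed in this comparison, 30.7% higher and 14.3% lower in sperm, and 1 of these 7 is below that share. The fit scales libraries by TMM factors, which were 0.617 to 0.895 in in vitro sperm and 1.18 to 1.53 in nuclei. This scaling raises sperm relative to nuclei, so the 11.0-fold is larger than the library-total means of 214 against 39.7 CPM give. With that scaling the all-gene median of the log2 fold changes was 1.70. Relative to that median ERDJ3A was higher by 1.76. Over all genes 4314 passed as higher and 2006 as lower in sperm, and 3399 and 2480 with TMM factors from all genes before the expression filter. ERDJ3A passed in all 17 alternative fits, with log2 fold changes of 2.32 to 3.69. It was 2.32 (adjusted p = 0.00833) without nucleus library 1, the library with the lowest ERDJ3A level, and 2.33 (adjusted p = 0.045) with TMM factors from all genes before the expression filter. Relative to the median of all genes it was -0.07 without nucleus library 2 and -0.37 with no expression filter. With semi in vivo sperm set against nuclei instead, the log2 fold change was again 3.46 (adjusted p = 0.00592).

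The vegetative marker genes, summed, were at 57.8 to 84.5 CPM in in vitro sperm against 27328 to 42176 CPM in nuclei, while ERDJ3A was at 194 to 233 CPM in in vitro sperm against 12.2 to 55.1 CPM in nuclei. Sperm marker genes, at 18174 to 21440 CPM in in vitro sperm, still summed to 129 to 363 CPM in nuclei, and their part in the ERDJ3A counts of nuclei was not tested. The gene next to ERDJ3A on the opposite strand, AT3G08960, overlaps it by 60 bases in the reference annotation (RefSeq on TAIR10.1). Smart-seq2 libraries do not keep the strand, so reads in that overlap cannot be assigned to either gene with certainty. AT3G08960 itself had 104, 215 and 185 counts in semi in vivo sperm, 22, 314 and 90 in in vitro sperm and 1, 27 and 55 in nuclei. The part of the overlap in the ERDJ3A counts was not tested.

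Between semi in vivo and in vitro sperm, ERDJ3A had a log2 fold change of 0.18 ± 0.18 (SE), with an adjusted p of 0.999 in edgeR. In this comparison 6 of the 10 members were tested and BIP3, SHD, CRT1 and CRT3 had too few counts. None of the 6 passed in edgeR, none had an unadjusted p under 0.05, and none passed in DESeq2 or limma-voom. Of all 14131 genes tested, 0.630% passed, semi in vivo sperm being higher for 0.538% and lower for 0.0920%. The 6 log2 fold changes lay between -1.17 for CNX1 and 0.87 for ERDJ3B, with standard errors of 0.18 for ERDJ3A, 0.34 for ERDJ2A and 0.89 or more for the other 4. Differences of several fold in those 4 genes were therefore not detectable at these counts.

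**Figure D2:**
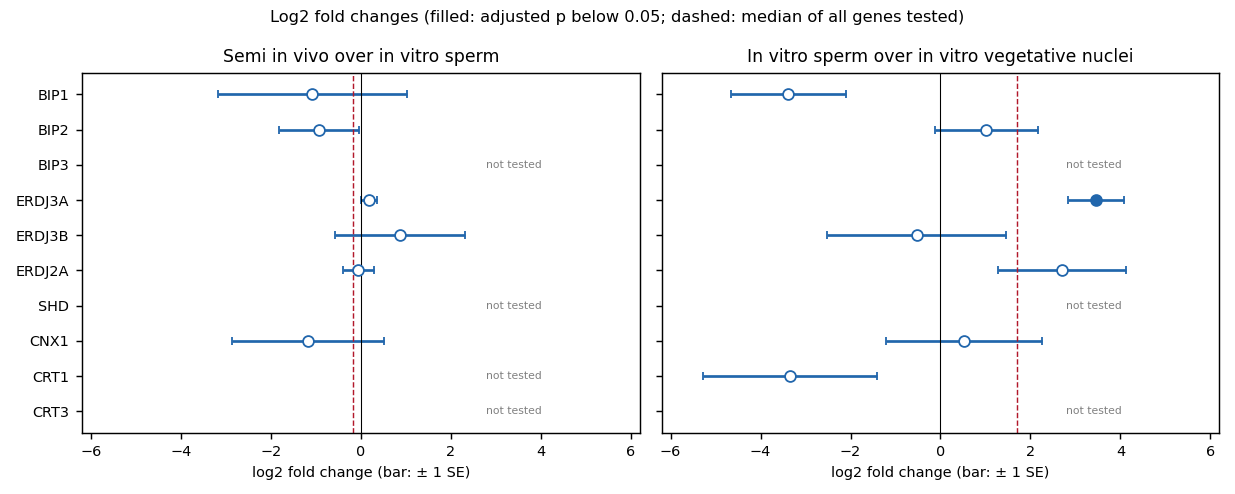
Log2 fold change (horizontal axis) with its standard error for each chaperone gene, for semi in vivo sperm over in vitro sperm (left) and in vitro sperm over in vitro vegetative nuclei (right); filled points passed an adjusted p of 0.05 in edgeR and the dashed line is the median of all genes tested. ERDJ3A at 3.46 is the only filled point, BIP1 and CRT1 lie at -3.38 and -3.35 against an all-gene median of 1.70, and genes marked as not tested had too few counts.

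BIP1 and BIP2 encode nearly identical BiP proteins. BIP1 had 1, 31 and 0 counts in semi in vivo sperm, 1, 44 and 28 in in vitro sperm, and 291, 443 and 205 in vegetative nuclei. Its levels were 0.0417, 0.754 and 0 CPM in semi in vivo sperm, 0.0691, 1.09 and 0.763 CPM in in vitro sperm, and 21.1, 12.6 and 7.50 CPM in nuclei. Every nucleus library was above every sperm library. Between in vitro sperm and nuclei, 21.0% of all genes tested also separated in this direction, on TMM-scaled CPM. That scaling raises in vitro sperm relative to nuclei, so this share is not on the scale of the levels given here. The log2 fold change of in vitro sperm over nuclei was -3.38 ± 1.27 (SE), 5.09 below the median of all genes, with an unadjusted p of 0.0322 and an adjusted p of 0.0669 in edgeR. Thus BIP1 missed the threshold, and it passed in 7 of 17 alternatives, among them upper-quartile scaling (adjusted p = 0.0324), DESeq2 (0.000896) and limma-voom (0.0263). The log2 fold change was negative in all 17, between -4.52 and -2.86. In the 6 fits that left out 1 library it did not pass.

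BIP2 did not separate the groups. It had 68, 153 and 1 counts in semi in vivo sperm, 58, 128 and 240 in in vitro sperm, and 21, 401 and 29 in nuclei, or 2.83, 3.72 and 0.0304 CPM, 4.01, 3.16 and 6.54 CPM, and 1.53, 11.4 and 1.06 CPM. Nucleus library 2 was the highest of the 9 and the other nucleus libraries were below all in vitro sperm libraries. The log2 fold change was 1.01 ± 1.14 (SE) for in vitro sperm over nuclei (adjusted p = 0.514), which turned to -0.18 with TMM factors from all genes before the expression filter, and -0.92 ± 0.89 (SE) for semi in vivo over in vitro sperm (adjusted p = 0.999), both in edgeR.

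As counted, the balance of BIP1 and BIP2 differed between the sperm and nucleus libraries. BIP1 made up 1.45% (95% Wilson interval 0.256% to 7.76%) and 16.8% (12.1% to 22.9%) of the summed BIP1 and BIP2 counts in semi in vivo sperm libraries 1 and 2, and 0% of a single count in library 3. In in vitro sperm its share was 1.69% (0.2998% to 8.996%), 25.6% (19.6% to 32.6%) and 10.4% (7.33% to 14.7%). In nuclei its share was 93.3% (89.9% to 95.6%), 52.5% (49.1% to 55.8%) and 87.6% (82.8% to 91.2%). In the libraries with more than 1 such count, every nucleus library had a higher share than every sperm library. How many other gene pairs separate in this way was not counted. The comparison of shares is a description with no test. The intervals reflect no more than counting error, because amplified copies of a molecule were counted as separate reads. The coding sequences of BIP1 and BIP2 were identical at 96.0% of aligned positions, with a longest identical run of 323 bases. Of the 50-base stretches of BIP1, 32.0% also occur in BIP2. How reads that match both genes were counted is not given in the sources used here, so the split between BIP1 and BIP2 is uncertain. Summed to a single feature, BIP1 and BIP2 had 59, 172 and 268 counts in in vitro sperm against 312, 844 and 234 in nuclei, with a log2 fold change of -0.88 ± 0.80 (SE) and an adjusted p of 0.416 in edgeR.

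**Figure D3:**
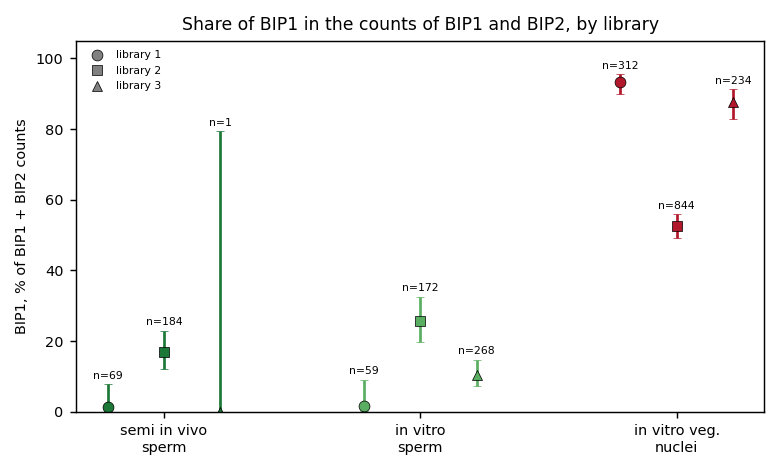
BIP1 as a percentage of the summed counts of BIP1 and BIP2 (vertical axis) in each library of semi in vivo sperm, in vitro sperm and in vitro vegetative nuclei; bars are 95% Wilson intervals and n is the summed count. Sperm libraries lie between 0% and 25.6% and nucleus libraries between 52.5% and 93.3%; the semi in vivo library with n = 1 carries no information.

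BIP3, the BiP gene known in Arabidopsis for its induction by endoplasmic reticulum stress, was at 0.681 CPM or less in all libraries but nucleus library 2, which had 4.27 CPM. It had 0, 28 and 0 counts in semi in vivo sperm, 4, 4 and 0 in in vitro sperm, and 0, 150 and 1 in nuclei. Semi in vivo library 2 and nucleus library 2 held nearly all of them. With 3 counts as the floor, which covers counting error only, a library with 0 counts allows at most 0.0818 to 0.218 CPM here.

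The other J proteins were far below ERDJ3A. ERDJ3B, which with SDF2 serves BiP in Arabidopsis, had 0.250, 1.68 and 2.71 CPM in semi in vivo sperm, 0, 2.47 and 0.572 CPM in in vitro sperm, and 2.18, 7.74 and 0.110 CPM in nuclei. All 3 groups overlapped. The log2 fold change was -0.52 ± 1.99 (SE) for in vitro sperm over nuclei (adjusted p = 0.853 in edgeR). Its coding sequence was identical to that of ERDJ3A at 39.7% of aligned positions, with a longest identical run of 9 bases.

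ERDJ2A was steady in sperm and uneven in nuclei. It had 245, 518 and 257 counts in semi in vivo sperm, 204, 310 and 516 in in vitro sperm, and 5, 373 and 9 in nuclei. In CPM these were 10.2, 12.6 and 7.82 in semi in vivo sperm, 14.1, 7.65 and 14.1 in in vitro sperm, and 0.363, 10.6 and 0.329 in nuclei. Nucleus library 2 reached the sperm levels and the other nucleus libraries were below 0.4 CPM. The log2 fold change of in vitro sperm over nuclei was 2.70 ± 1.42 (SE), 1.00 above the median of all genes, with an adjusted p of 0.168 in edgeR. ERDJ2A passed in 2 of 17 alternatives, without nucleus library 2 (5.91, adjusted p = 0.00702) and with limma-voom (4.48, adjusted p = 0.0159), and DESeq2 gave it no adjusted p. It was 1.33 (adjusted p = 0.482) without nucleus library 1 and 1.46 (adjusted p = 0.502) with TMM factors from all genes before the expression filter. Relative to the median of all genes it was -0.01 without nucleus library 1, -0.57 without nucleus library 3 and -1.24 with no expression filter. Nucleus library 2 also had the most genes at 1 CPM and the most pistil marker counts among nuclei, and their part in the ERDJ2A value was not tested. Its paralog ERDJ2B (AT4G21180) took few counts, and ERDJ2A was 86.1% or more of the summed counts of both genes in every library.

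SHD encodes the HSP90 of the endoplasmic reticulum. Its counts were 16, 1 and 0 in semi in vivo sperm and 0 in all 3 libraries of both in vitro sperm and nuclei. By counting error alone, those zeros allow at most 0.0327 CPM over the in vitro sperm group and 0.0393 CPM over the nuclei. The spread between libraries, here 16, 1 and 0 counts in semi in vivo sperm, is not part of these bounds. A single semi in vivo library thus held 16 of the 17 SHD counts, and 1 count is left without that library. SHD had too few counts for the test, and with no expression filter it did not pass (adjusted p = 0.524 in edgeR).

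CNX1, the membrane-bound calnexin, had 6, 60 and 0 counts in semi in vivo sperm, 19, 103 and 21 in in vitro sperm, and 0, 147 and 70 in nuclei. The groups overlapped, and the mean levels were 0.570 ± 0.780 CPM in semi in vivo sperm, 1.48 ± 0.995 CPM in in vitro sperm and 2.25 ± 2.11 CPM in nuclei (SD, n = 3 each). Its log2 fold change of in vitro sperm over nuclei was 0.52 ± 1.74 (SE; adjusted p = 0.834 in edgeR) and changed sign with other scalings.

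CRT1, a soluble calreticulin, was seen mainly in nuclei. It had 0, 6 and 20 counts in semi in vivo sperm, 16, 2 and 0 in in vitro sperm, and 18, 246 and 302 in nuclei, or 0, 0.146 and 0.608 CPM, 1.11, 0.0494 and 0 CPM, and 1.31, 6.997 and 11.05 CPM. On CPM over library totals, nucleus libraries 2 and 3 stood above all sperm libraries. Nucleus library 1 was only just above in vitro sperm library 1. The fit's TMM factors were 0.895 for in vitro sperm library 1 and 1.18 for nucleus library 1. On TMM-scaled CPM those libraries changed order, so in vitro sperm and nuclei overlapped. On that scale 21.0% of all genes tested had in vitro sperm below nuclei with no overlap. The log2 fold change of in vitro sperm over nuclei was -3.35 ± 1.93 (SE), 5.05 below the median of all genes, with an adjusted p of 0.206 in edgeR. Limma-voom was the 1 of 16 alternatives in which CRT1 passed (adjusted p = 0.0152). Its paralog CRT2 (AT1G09210), 83.4% identical in coding sequence, had 0, 2 and 0 counts in semi in vivo sperm, 0, 15 and 0 in in vitro sperm and 55, 258 and 122 in nuclei. Summed to a single feature, both genes gave -3.68 ± 1.61 (log2 fold change ± SE; adjusted p = 0.104 in edgeR).

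CRT3, the calreticulin that Arabidopsis uses for the immune receptor EFR, had 4, 18 and 0 counts in semi in vivo sperm, 2, 202 and 6 in in vitro sperm, and 0, 8 and 7 in nuclei. Thus 1 library, in vitro sperm library 2, held most of its counts, at 4.98 CPM against at most 0.438 CPM in each other library. That library also had the highest pistil marker level, with 1 of the 12 markers at 0 against 6 and 8 at 0 in the other in vitro sperm libraries. The part of other cells in the CRT3 counts was not tested.

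Levels of different genes were set side by side as CPM per kilobase of coding sequence. ERDJ3A led each group, at 125 ± 9.40 per kilobase in semi in vivo sperm, 125 ± 11.2 in in vitro sperm and 23.1 ± 13.9 in nuclei (SD, n = 3 each). ERDJ2A came next in both sperm groups, at 4.95 ± 1.16 in semi in vivo sperm and 5.78 ± 1.80 in in vitro sperm. In nuclei BIP1 (6.84 ± 3.43) and CRT1 (5.05 ± 3.83) followed, and they did not differ beyond their spread. In nucleus library 1 BIP1 was above ERDJ3A, at 10.5 against 7.10 per kilobase, and in libraries 2 and 3 ERDJ3A was above BIP1, at 32.1 against 6.27 and 30.2 against 3.73. ERDJ3A made up 92.1% to 94.6% of the summed per-kilobase level of the 10 genes in semi in vivo sperm, 89.1% to 92.2% in in vitro sperm and 32.8% to 66.8% in nuclei. Without ERDJ3A the 10 genes summed to 11.2 to 21.5 CPM in semi in vivo sperm, 21.0 to 22.7 CPM in in vitro sperm and 22.9 to 58.02 CPM in nuclei.

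The genes whose pattern over the 9 libraries was nearest to that of a member were found by the root mean square difference of log2 CPM after subtracting each gene's mean. For ERDJ3A these were CP5 (AT1G64720), annotated as a lipid transport superfamily protein, at 0.12, a flavin-binding monooxygenase gene (AT1G62600) at 0.16 and AT2G47960 at 0.22. The nearest genes to ERDJ2A were ORG4 (AT2G06010) at 0.35, a cytidine deaminase family gene (AT4G29570) at 0.36 and an ARM repeat gene (AT1G27210) at 0.38. BIP1 was nearest to the phosphoglucose isomerase gene PGI1 (AT4G24620) at 0.50, and CNX1 to the glutamine synthetase gene GLN1.3 (AT3G17820) at 0.41 and the cellulose synthase gene CESA6 (AT5G64740) at 0.46. BIP2, ERDJ3B and CRT1 had no gene within 0.8, and BIP3, SHD and CRT3 reached 1 CPM in too few libraries.

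The members were then set beside 67 other genes of folding, quality control and import in the endoplasmic reticulum, in 6 lists. Between semi in vivo and in vitro sperm 48 of them were tested and none passed in edgeR, against 0.630% of all genes tested. In edgeR 3 had an unadjusted p under 0.05, and the share of all genes at that level is not given here. In DESeq2 1 passed, MNS4. The median log2 fold change of the 48 genes was -0.18, against -0.17 for all genes. P58IPK (AT5G03160), a J protein that assists BiP, had no counts in semi in vivo sperm against 12, 18 and 36 in in vitro sperm (adjusted p = 0.351 in edgeR). MNS4 (AT5G43710), a mannosidase of glycoprotein degradation, had no counts in semi in vivo sperm against 20, 53 and 18 in in vitro sperm (adjusted p = 0.292 in edgeR). DAD2 (AT2G35520), an oligosaccharyltransferase subunit, had 16.0, 14.1 and 17.1 CPM in semi in vivo sperm against 12.5, 9.28 and 8.48 CPM in in vitro sperm (log2 fold change 0.84, adjusted p = 0.321 in edgeR).

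Between in vitro sperm and nuclei 52 of the 67 genes were tested, and 10 were higher and 7 lower in sperm, against 30.7% and 14.3% of all genes. Their median log2 fold change was 0.73, against 1.70 for all genes, and that of the 7 of 10 chaperone genes tested was 0.52. Of the 3 HSP70 and HSP90 cofactors tested, 2 passed and both were lower in sperm. SDF2 (AT2G25110), the ERDJ3B partner, had 1, 1 and 0 counts in in vitro sperm against 42, 334 and 261 in nuclei (adjusted p = 0.014 in edgeR). The CPM of SDF2 over summed libraries was 383 times as high in nuclei as in sperm (95% interval 106 to 3169, counting error only), and 182 times (50.1 to 1504) with TMM-scaled totals. P58IPK had 0.829, 0.444 and 0.981 CPM in in vitro sperm against 17.9, 21.7 and 7.10 CPM in nuclei, a log2 fold change of -3.46 ± 0.96 (SE) and an adjusted p of 0.0224 in edgeR. None of the 5 genes of the calnexin and calreticulin cycle tested passed.

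Of 13 disulfide isomerases and oxidases tested, 2 were higher and none lower in sperm, against 30.7% and 14.3% of all genes, so the higher ones were fewer than that share. PDIL1-3 (AT3G54960), a protein disulfide isomerase, had 15.5, 12.9 and 15.4 CPM in in vitro sperm against a single count in 3 nucleus libraries (adjusted p = 0.00131 in edgeR). The oxidase gene ERO1 (AT1G72280), which reoxidises disulfide isomerases, had 44.6, 41.7 and 56.6 CPM in in vitro sperm against 0.291, 15.9 and 9.77 CPM in nuclei, a log2 fold change of 3.53 ± 1.19 (SE) and an adjusted p of 0.0464 in edgeR. ERO1 passed in 8 of 17 alternatives, with adjusted p up to 0.199. ERO1 had its lowest level in nucleus library 1, the nucleus library with the fewest counts and the fewest genes at 1 CPM. Among nuclei, ERDJ3A, BIP3, CNX1, CRT1 and CRT3 were also lowest there, and BIP1, BIP2, ERDJ3B and ERDJ2A were not.

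Of 9 unfolded protein response genes tested, 3 were higher and 1 lower in sperm, close to the 30.7% and 14.3% of all genes. BZIP28 (AT3G10800), a membrane-bound transcription factor that BiP holds in the endoplasmic reticulum, had 102, 84.3 and 104 CPM in in vitro sperm against 0.944, 40.9 and 18.8 CPM in nuclei (log2 fold change 3.32 ± 1.11 SE, adjusted p = 0.0454 in edgeR), and passed in 8 of 17 alternatives, with adjusted p up to 0.219. BZIP17 (AT2G40950), its relative, had 23, 75 and 47 counts in in vitro sperm and none in nuclei, at least 40.2-fold higher in CPM against a floor of 3 counts over the nuclei. With TMM-scaled totals this bound, like the bounds for the other genes without counts in nuclei, is 2.11 times as large. All these bounds cover counting error only, not the spread between libraries. NAC103 (AT5G64060), a transcription factor gene of the response, had 35, 50 and 15 counts in in vitro sperm and none in nuclei, at least 27.7-fold higher. NAC062 (AT3G49530), a membrane-bound factor, had 1.87, 1.58 and 1.36 CPM in in vitro sperm against 43.7, 29.3 and 61.7 CPM in nuclei, a log2 fold change of -3.88 ± 0.73 (SE) and an adjusted p of 0.0064 in edgeR.

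Of 9 degradation genes tested, MNS4 was higher in sperm, with 20, 53 and 18 counts in in vitro sperm and none in nuclei (at least 25.2-fold). The ubiquitin ligase gene HRD1B (AT1G65040) and the derlin gene DER2.1 (AT4G21810) were lower, with log2 fold changes of -5.26 ± 1.36 and -5.14 ± 1.32 (SE; adjusted p = 0.02 and 0.0199 in edgeR). These 1 higher and 2 lower of 9 stand against 30.7% and 14.3% of all genes. Of 13 import and glycosylation genes tested, 4 were higher and 2 lower, close to the 30.7% and 14.3% of all genes. DAD1 (AT1G32210), an oligosaccharyltransferase subunit, had 557, 1650 and 1127 counts in in vitro sperm and none in nuclei, at least 924-fold higher. Its paralog DAD2 (log2 fold change 6.42 ± 1.33 SE) and the subunit gene DGL1 (AT5G66680; 26, 135 and 44 counts in in vitro sperm, none in nuclei, at least 56.8-fold) were on the same side, as was SEC62 (AT3G20920; 1.86 ± 0.63 SE), which is close to the all-gene median. The import channel genes SEC61A (AT1G29310; -3.84 ± 1.16 SE) and AT4G24920, a SEC61 gamma subunit gene (-4.45 ± 1.31 SE), were lower in sperm. DAD1 and DAD2, like the SEC61 genes, have close copies, so their single values are uncertain.

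With a library left out, the 17 calls in the 6 lists became 6 without in vitro sperm library 1, 9 without in vitro sperm library 2, 10 without in vitro sperm library 3, 18 without nucleus library 1, 14 without nucleus library 2 and 9 without nucleus library 3. Of the 16 called genes other than SEC62, 5 passed whichever library was left out: SDF2, PDIL1-3, NAC062, DAD1 and DAD2. Over all alternatives in which they were tested, PDIL1-3, DAD1, DAD2 and SDF2 passed in each, NAC062, DER2.1 and HRD1B in 16 of 17, AT4G24920 in 13 of 17, DGL1 in 13 of 15, P58IPK in 12 of 17, BZIP17 in 12 of 16, NAC103 in 10 of 15, SEC61A in 9 of 17 and MNS4 in 8 of 15. The direction of the 5 genes without counts in nuclei, and of PDIL1-3 with a single one, could not turn in any of them. Nor could that of SDF2, with next to no counts in in vitro sperm, in the fits that use in vitro sperm.

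**Figure D4:**
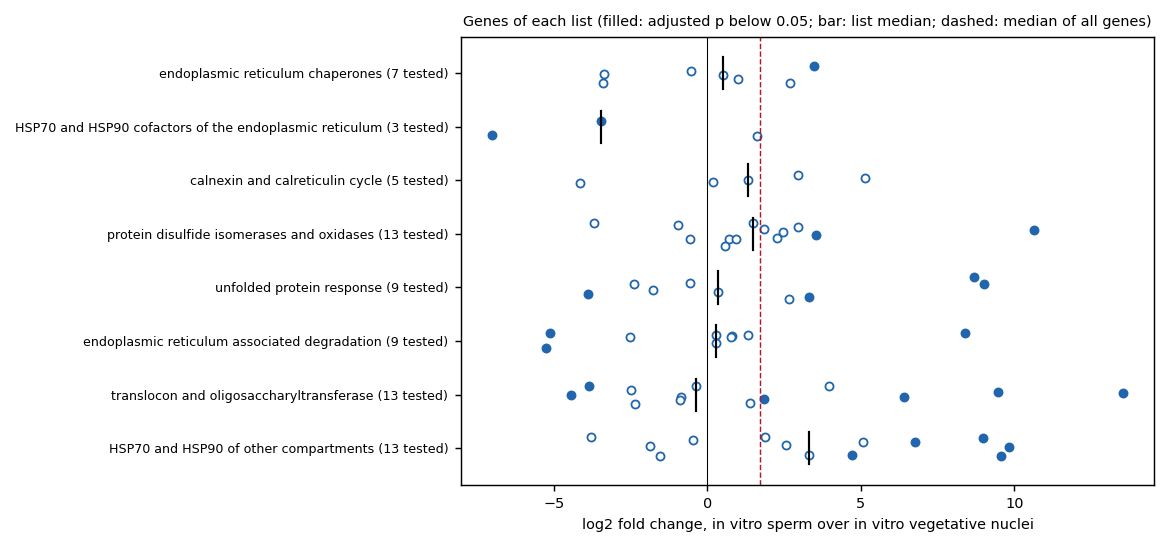
Log2 fold change of in vitro sperm over in vitro vegetative nuclei (horizontal axis) for each tested gene of the chaperone set, the 6 other endoplasmic reticulum lists and the HSP70 and HSP90 genes of other compartments; filled points passed an adjusted p of 0.05 in edgeR, short bars are list medians and the dashed line is the median of all genes, 1.70. The chaperone median is 0.52, and filled points lie on both sides of 0 over the 6 other lists, with 10 higher and 7 lower.

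HSP70 and HSP90 genes of the cytosol, mitochondria and plastids were counted for comparison. Of 16 such genes 13 were tested between in vitro sperm and nuclei, 5 were higher and none lower, against 30.7% and 14.3% of all genes, and their median log2 fold change was 3.32, against 1.70 for all genes. HSP70-4 (AT3G12580), a cytosolic HSP70, had 299, 532 and 194 CPM in in vitro sperm against 1.60, 17.8 and 0.805 CPM in nuclei (log2 fold change 6.77 ± 1.40 SE, adjusted p = 0.00971 in edgeR). The mitochondrial mtHSC70-1 (AT4G37910) had 26.5, 23.9 and 25.8 CPM in in vitro sperm against 0.581, 0.654 and 4.57 CPM in nuclei (4.71 ± 1.06 SE, adjusted p = 0.013 in edgeR). Between semi in vivo and in vitro sperm none of 13 passed in edgeR, against 0.630% of all genes tested. An unadjusted p under 0.05 in edgeR was found for 3 of the 13. The share of all genes at that level is not given here, so these 3 cannot be judged against it. HSP70-4 was at 528, 726 and 591 CPM in semi in vivo sperm against those 299, 532 and 194 CPM in in vitro sperm (log2 fold change 1.06, adjusted p = 0.078 in edgeR). HSP70-4 passed in 5 of 16 alternatives. Among these were the fits without semi in vivo sperm library 1 (adjusted p = 0.00132) and without in vitro sperm library 2 (0.000682), with limma-voom (0.0177) and with no expression filter (0.000149). In the other 4 fits that left out 1 library it did not pass, with adjusted p up to 0.227. The cytosolic HSP90-2 (AT5G56030) was at 19.3, 34.1 and 19.8 CPM in semi in vivo sperm against 9.81, 17.5 and 2.86 CPM in in vitro sperm (1.50, adjusted p = 0.19 in edgeR), and passed in 3 of 16 alternatives, among them those without in vitro sperm library 2 (2.11, adjusted p = 0.0468) and with no expression filter (0.000626), but not in the other 5 fits that left out 1 library. Whether these genes differ from the endoplasmic reticulum chaperones in their response was not tested.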

How the data were processed

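The authors deposited a table of raw counts per gene for the 9 libraries. Per the labels' protocols, libraries were made with Smart-seq2, and the submitters' processing notes name Trim Galore, HISAT2, featureCounts and the build TAIR10. Not given in the sources used here: versions, the strand setting, and the treatment of reads that match several genes. Gene names came from RefSeq on TAIR10.1, in which 32548 of 32833 loci were found. Coding lengths and identities came from the same annotation.

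The 6 libraries of each comparison were fitted alone with edgeR 4.0.16 (R 4.3.3), using filterByExpr (minimum count 10), TMM factors, a robust quasi-likelihood fit and Benjamini-Hochberg adjustment over all genes tested, with a threshold of 0.05. Levels are CPM over library totals, as mean ± SD over 3 libraries. Shares of all genes whose groups did not overlap were taken on TMM-scaled CPM. Standard errors were back-calculated from the F statistic. The procedure was also run on simulated counts with 200 changed genes, and the outcome is not given here. That setting is unlike the comparison of in vitro sperm and nuclei, in which 6320 genes passed. The members and lists were chosen with earlier results of these data known. Within each list the genes named are up to 3 higher and 3 lower ones with the smallest adjusted p; SEC62, outside this rule, was named after its values were seen. Alternatives were other scalings and filters, DESeq2 1.42.0, limma-voom (limma 3.58.1) with sample weights, the replicate number as a block, a joint fit of all 9 libraries, each library left out, summed paralogs, and semi in vivo sperm set against nuclei. Promoters and proteins were not used here. No pair of libraries of a group was close to a duplicate, with a chi-square of 25.3 to 369 per gene.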

Additional observations from a re-analysis of the deposited data

How the results depend on the processing

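Between in vitro sperm and nuclei the number of chaperone genes past the threshold was 1, and ERDJ3A was called in every alternative run. The number was 2, with BIP1 as the second gene, for RLE, upper-quartile and both other TMM factor sets, DESeq2 and the filter of 5 CPM in 3 libraries, and 4 for limma-voom. It was 1 to 2 with a library left out, being 2 without nucleus library 2. Over all genes it was 6320, and 3555 to 5854 with a library left out; in the other lists 17, and 6 to 18. Scaling and filtering moved the split of all called genes, 4314 higher and 2006 lower, to 3740 and 2513 with TMM factors from common genes (10 counts or more in each of the 6 libraries), to 3399 and 2480 with TMM factors before the filter, and to 2433 and 2352 with no filter. The all-gene median log2 fold change was 1.70, and 1.57 for RLE, 1.27 for upper-quartile factors, 0.86 with the common-gene TMM factors and 0.55 with TMM before the filter.

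Between semi in vivo and in vitro sperm no chaperone gene was called in any alternative. Over all genes the count was 89, but 340 with DESeq2, 150 without a filter, 165 with the 5 CPM filter, 0 with all 9 libraries in 1 fit (996 at an unadjusted p under 0.05) and 51 to 123 with a library left out. In the other lists it was 0, and 1 with DESeq2.

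Same-numbered libraries did not all deviate together (correlations of -0.006, 0.064 and 0.170 in sperm, and 0.023, 0.066 and 0.004 between in vitro sperm and nuclei), not every library correlated best with its own number, and the labels name no shared source, so a pairing was not established. With the replicate block 0 chaperone genes, 0 listed genes and 223 genes in all were called between semi in vivo and in vitro sperm, and 1, 13 and 5790 between in vitro sperm and nuclei. Between the sperm groups HSP70-4 and HSP90-2 of other compartments passed with the block (adjusted p = 1.97e-05 and 2.31e-05).

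Signs changed in these chaperone genes, none of which passed; SEC62 was not followed over the alternatives. Between the sperm groups ERDJ2A, -0.06, was 0.0698 with limma-voom and -0.32 to 0.16 with a library left out (0.07, 0.11 and 0.16 without semi in vivo library 3 and in vitro sperm libraries 1 and 3). Between in vitro sperm and nuclei CNX1, 0.52, was -0.37 with common-gene TMM factors, -0.82 with TMM before the filter and with no filter, -0.95 to 1.25 with a library left out (-0.36 without in vitro sperm library 2, -0.95 without nucleus library 1) and -0.65 with semi in vivo sperm. BIP2, 1.01, was -0.18 with TMM before the filter and with no filter, and -0.23 (without nucleus library 1) to 2.65 with a library left out. ERDJ3B, -0.52, was -2.43 to 0.73 with a library left out, with 0.03 without in vitro sperm library 1 and 0.73 without nucleus library 2. CRT1 between the sperm groups, with too few counts for the main test, was -0.37 with no filter, and 0.25 (without semi in vivo library 1) to -0.97 (without in vitro sperm library 2) where it was tested with a library left out. Causes were not tested.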
